A study of Drosophila melanogaster with 54 samples.

Results

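The binding of the Hox protein Abdominal-B (Abd-B) was compared between cells that made it together with Homothorax (Abd-B+Hth) and cells that made it alone (Abd-B). The members were all regions listed for these 2 groups at a MACS2 q value of 0.01: 9027 for Abd-B+Hth and 9776 for Abd-B, together 18803 of the 116680 regions in the 18 lists of the study. An Abd-B+Hth region that overlapped no Abd-B region was called gained, one that overlapped by at least 1 bp was called common, and an Abd-B region that overlapped no Abd-B+Hth region was called lost. All libraries came from ChIP-seq with an anti-GFP antibody in transiently transfected Kc167 cells, a Drosophila line with features of haemocytes. The Abd-B+Hth cells carried the plasmid pMT-Hth-2A-eGFP-AbdB, which makes Hth and GFP-tagged Abd-B from 1 message, and the Abd-B cells carried pMT-eGFP-AbdB. In both groups the metallothionein promoter was induced with 1 mM copper sulphate for 4 h, and the cells were fixed in 1% formaldehyde for 10 min and sorted within the same range of GFP fluorescence. Kc167 cells lack Hth of their own and hold Extradenticle (Exd) in the cytoplasm, so the groups differ in Hth and in where Exd can act, and Hth and tagged Abd-B come from plasmids in a single cell line. Each list combines 2 replicate ChIP libraries called against an input, and it holds positions without scores or reads. Depth therefore cannot be read from the lists, no replicate spread can be given, and no p-value over regions was computed. Intervals in brackets are 95% Wilson intervals and cover the counting of regions only. The study's read table gives 1 of the Abd-B+Hth libraries fewer mapped reads than either Abd-B library, and the part of that in the numbers below was not tested.

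Abd-B is the most posterior Hox protein of the fly and patterns the last abdominal segments, the posterior spiracles and the genitalia. Hox proteins bind short AT-rich sites through a homeodomain, and Abd-B favours a TTTAT core. Exd, a PBC-class homeodomain protein, enters the nucleus when it pairs with Hth, and Exd can then bind DNA beside a Hox protein on a composite site in which the Exd side (TGAT) adjoins the Hox side.

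The sequences below are examples, picked because they hold words that were counted in gained and lost regions. The first 6 come from strictly gained regions, those in the Abd-B+Hth list at the stricter q value of 1e-10 that overlapped no Abd-B region even at q 0.01. The Exd-Hox word TGATTTAT was in 24 of the 85 strictly gained windows (28.2%). The 6 windows are those in which this word, in capitals, lay nearest to the region's centre, from 4 to 22 bp away. They are printed 5′ to 3′ from the Release 6 genome (dm6), 68 bases each. The GATAe window, in an intron of a gene for an endodermal GATA factor, is at chr3R:16010906-16010973, plus strand. The Ugt307A1 window, 0.058 kb from the start of a glycosyltransferase gene, is at chr2L:7067883-7067950, plus strand. The Spn28Dc window, in an intron of a serpin gene, is at chr2L:8005563-8005630, minus strand. The CG5921 window, intronic, is at chrX:6058612-6058679, plus strand. The CG12507 window, 5.75 kb from that gene's start, is at chrX:16260740-16260807, minus strand. The InR window, in an intron of the insulin receptor gene, is at chr3R:21602006-21602073, minus strand.
GATAe: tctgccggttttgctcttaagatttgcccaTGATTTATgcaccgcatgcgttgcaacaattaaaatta
Ugt307A1: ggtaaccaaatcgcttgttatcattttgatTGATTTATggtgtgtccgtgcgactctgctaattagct
Spn28Dc: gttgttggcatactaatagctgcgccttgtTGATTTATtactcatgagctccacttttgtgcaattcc
CG5921: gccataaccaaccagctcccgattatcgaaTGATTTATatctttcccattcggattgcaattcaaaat
CG12507: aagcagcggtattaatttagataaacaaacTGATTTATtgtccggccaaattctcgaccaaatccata
InR: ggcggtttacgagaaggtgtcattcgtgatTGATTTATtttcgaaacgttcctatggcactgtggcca

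The 6 regions differed in what else was bound there. The regions at GATAe and InR overlapped no region of another Hox protein in any condition, whereas those at Ugt307A1 and CG12507 overlapped 5 other Hox+Hth lists each.

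The lost windows below are 200 bp long and are centred on strictly lost regions, those in the Abd-B list at q 1e-10 that overlapped no Abd-B+Hth region at q 0.01. They are 4 of the 5 strictly lost windows with at least 3 matches to the Abd-B-type words TTTATGA or TTTATGG and TTTATTA or TTTATTG on either strand, which are in capitals and are called HoxB matches here. The fifth, with 3 matches in an intron of CG13101, is the narrower in a tie and is not printed. At least 3 HoxB matches were thus in 5 of 67 strictly lost windows (7.46%), and in 3 of 85 strictly gained ones (3.53%). At least 1 was in 62.7% of strictly lost and 57.6% of strictly gained windows, so HoxB words did not set these classes apart. The bab2 window, in an intron of a gene for a BTB transcription factor of abdominal pigmentation, is at chr3L:1153230-1153429, plus strand. The dnc window, in an intron of the gene for a cAMP phosphodiesterase, is at chrX:3187857-3188056, plus strand. The Wnt4 window, in an intron of a Wnt ligand gene, is at chr2L:7260688-7260887, plus strand. The nyo window, intronic, is at chr3R:31553078-31553277, plus strand. They hold 4, 3, 3 and 3 HoxB matches in that order and no Exd-Hox match. In the gained windows printed above, only TGATTTAT is in capitals. Those at Ugt307A1, Spn28Dc and CG12507 also hold 1 HoxB match each, which overlaps TGATTTAT. Those at Ugt307A1 and InR also hold the Exd-Hox word TGATTGAT, which overlaps it too. For comparison, the last line is the centre of the widest common region that passed the exclusions, in an intron of kis, the gene of a chromatin remodeller, at chr2L:222895-223094, plus strand, with its single Exd-Hox match (TGATTAAT read on the other strand) in capitals and no HoxB match.
bab2: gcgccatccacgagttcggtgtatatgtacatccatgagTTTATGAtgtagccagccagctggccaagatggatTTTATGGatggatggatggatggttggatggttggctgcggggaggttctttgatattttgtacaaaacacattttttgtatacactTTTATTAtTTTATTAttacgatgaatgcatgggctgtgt
dnc: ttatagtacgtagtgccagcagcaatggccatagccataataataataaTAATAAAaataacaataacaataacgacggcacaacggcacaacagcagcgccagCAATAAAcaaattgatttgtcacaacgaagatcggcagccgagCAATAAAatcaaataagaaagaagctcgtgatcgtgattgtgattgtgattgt
Wnt4: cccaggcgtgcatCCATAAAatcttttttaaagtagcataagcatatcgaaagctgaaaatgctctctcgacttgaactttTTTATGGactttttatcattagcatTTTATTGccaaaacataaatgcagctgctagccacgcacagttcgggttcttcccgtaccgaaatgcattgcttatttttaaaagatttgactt
nyo: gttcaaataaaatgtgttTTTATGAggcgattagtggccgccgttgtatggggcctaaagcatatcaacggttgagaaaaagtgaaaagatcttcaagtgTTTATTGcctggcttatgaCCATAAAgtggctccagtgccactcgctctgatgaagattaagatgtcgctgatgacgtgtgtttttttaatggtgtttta
kis: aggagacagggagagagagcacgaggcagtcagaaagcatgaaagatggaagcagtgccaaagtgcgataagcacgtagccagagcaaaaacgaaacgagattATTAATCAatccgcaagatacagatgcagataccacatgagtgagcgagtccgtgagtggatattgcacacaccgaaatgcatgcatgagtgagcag

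Of the 9027 Abd-B+Hth regions, 762 were gained (8.44%) [7.89 to 9.03], and of the 9776 Abd-B regions, 1537 were lost (15.7%) [15 to 16.5]. Each of these shares is also the background of its list, since it is counted over all regions of that list. Both classes consisted of short regions. The median width was 376 bp in gained and 364 bp in lost regions, against 604 bp in common ones, and 1.31% of gained and 0.26% of lost regions reached 1 kb, against 22.8% of common regions. Few of them passed the stricter threshold in their own list: 76 gained regions (9.97%) and 58 lost regions (3.77%), against 4392 common regions (53.1%). Base composition differed little, with a median GC content of 42.5% in gained, 41.0% in lost and 42.0% in common centre windows.

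Regions of high confidence in one condition were nearly always listed in the other. Of the 5018 Abd-B+Hth regions at q 1e-10, 4933 (98.3%) overlapped an Abd-B region at q 0.01, and of the 5675 Abd-B regions at q 1e-10, 5608 (98.8%) overlapped an Abd-B+Hth region. The strictly gained regions were 85 (1.69%) [1.37 to 2.09] and the strictly lost regions 67 (1.18%) [0.931 to 1.5]. A further 408 strong Abd-B+Hth regions (8.13%) were found with Abd-B alone only at q 0.01, and 1080 strong Abd-B regions (19.0%) were found with Abd-B+Hth only at q 0.01. Among the regions that passed q 0.01 but not q 1e-10, 686 of 4559 Abd-B+Hth regions (15%) and 1479 of 4733 Abd-B regions (31.2%) had no partner. Loss and gain at q 0.01 were thus mostly counted among the weaker calls, and by the strict definition lost regions did not outnumber gained ones. Between the 2 lists at q 1e-10 they did, with 1147 Abd-B regions (20.2%) lost and 493 Abd-B+Hth regions (9.82%) gained. The study's own differential test on the reads of the transient libraries went the other way. It gave more Abd-B regions with enhanced than with reduced binding in the presence of Hth, and most as unchanged. Presence in a list and read signal are unlike measures, so the counts here do not give the direction of change in binding.

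Where a region was shared, its width changed little. In 8029 common regions that overlapped exactly 1 Abd-B region, the Abd-B+Hth region was wider in 3171 (39.5%), narrower in 4815 (60.0%) and equal in 43, with a median log2 width ratio of -0.04. It was at least 2 times narrower in 404 and at least 2 times wider in 62. The narrower direction thus held for most pairs, but by a small amount. Gained regions lay a median of 1.57 kb from the nearest Abd-B region and 41.9% of them were within 1 kb of one. Lost regions lay a median of 2.30 kb from the nearest Abd-B+Hth region, with 34.2% within 1 kb. Common regions lay a median of 1.24 kb from the nearest other common region, with 46.5% within 1 kb. Such closeness was thus not particular to gained or lost regions. The shares gained on the arms ranged over 7.5 to 9.3% of Abd-B+Hth regions, and the shares lost over 14.7 to 21.7% of Abd-B regions, the highest being chromosome 4 with 10 of 46.

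Among the 8 Hox proteins, Abd-B had the smallest share of gained regions. The 8.44% of Abd-B compares with 14.0% for Scr, the next lowest, and 40.6% for Dfd, the highest, and the mean of the other 7 proteins was 29.8 ± 11.5% (SD, n = 7). The exact permutation test over the 8 proteins, two-sided, gave p = 0.13 for this difference, which is the smallest p it can give, so the design cannot reach 0.05. Over the 9 measures tested in this way the Benjamini-Hochberg adjusted value of this exact p was 0.643. The share of lost regions was not unusual: 15.7% for Abd-B, rank 5 from the highest, against 1.10% for Dfd to 44.2% for Antp and a mean of 15.9% in the other 7 (exact permutation p = 0.875, adjusted 0.875). The overlap of the 2 lists was the highest of the 8, with a Jaccard index of 0.763 for Abd-B and at most 0.714, for Scr, in the others (exact permutation p = 0.25, adjusted 0.643). Covered length changed by -0.09 on the log2 scale for Abd-B, the lowest value, against -0.03 to 0.87 for the other proteins (exact permutation p = 0.375, adjusted 0.643). By the strict definition the 85 gained regions of Abd-B were also the fewest, against 110 for Scr and 1909 for Dfd, while its 67 strictly lost regions were second to the 73 of Antp. As a share of the strict list the 1.18% of Abd-B ranked 3, after Antp (8.72%) and Lab (3.06%) and close to Scr (1.09%). The study gives another sequencing instrument for Abd-B, Ubx and Abd-A than for the rest, and the same input read numbers for Abd-B as for Abd-A, so these inputs may be shared. Within that instrument the share gained was 8.44% for Abd-B, against 39.7% for Ubx and 22.9% for Abd-A, and the share lost was 15.7% for Abd-B, against 5.48% for Ubx and 8.80% for Abd-A.

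**Figure D1:**
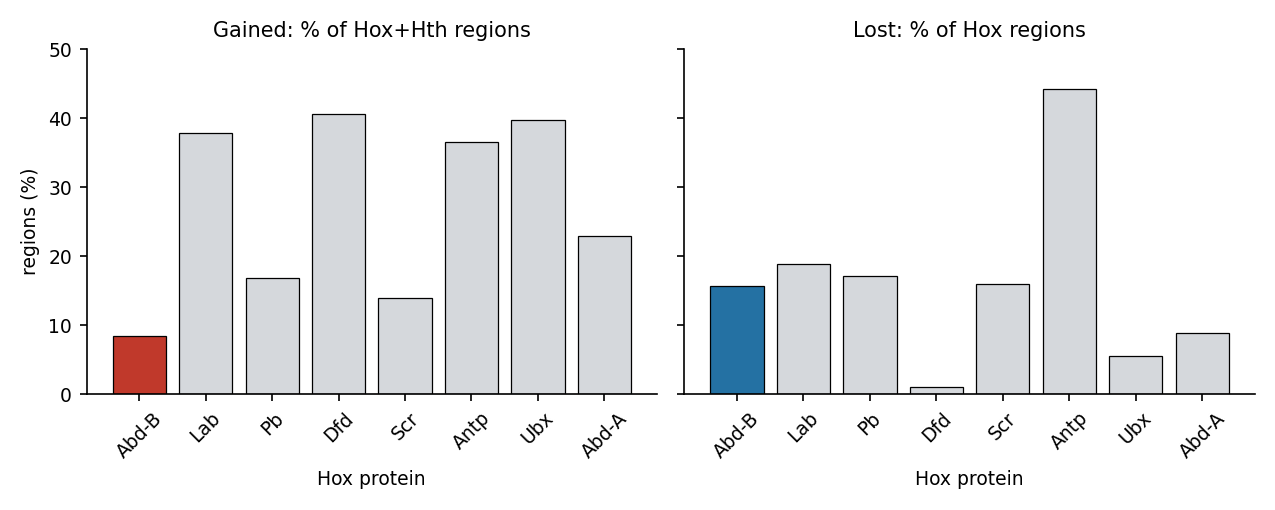
Share of Hox+Hth regions gained (left) and of Hox regions lost (right), in percent of the list, for each of the 8 Hox proteins, with Abd-B in colour and 1 bar per protein. Abd-B has the lowest bar for gained regions at 8.44% and a middle one for lost regions at 15.7%.

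Gained regions carried the composite Exd-Hox word more often than lost or common ones. An Exd-Hox match (TGATTAAT, TGATTGAT or TGATTTAT on either strand) lay in the central 200 bp of 147 gained regions (19.3%) [16.6 to 22.2], against 51 lost regions (3.32%) [2.53 to 4.34] and 427 common ones (5.17%) [4.71 to 5.66]. Flanking windows of 200 bp were centred 1 kb to either side and lay outside the regions of every list in the study, not only those of Abd-B. There the share was 4.28% around gained, 4.14% around lost and 3.49% around common regions. The shares at gained and at common regions were thus above those of their surroundings, by more at gained ones, and the interval of lost regions took in theirs. These words were taken from the study, which derived them partly on these samples, so they are not independent of the data. The most frequent of the 3 was TGATTTAT, the form printed above, with 95 gained regions (12.5%), 23 lost (1.5%) and 207 common (2.50%). TGATTGAT was in 4.99, 0.716 and 1.15% of gained, lost and common windows, and TGATTAAT in 3.15, 1.24 and 1.62%. Of all 32896 words of 8 bases, counted with both strands as 1, TGATTTAT had the largest excess of gained over common windows, at 9.96 percentage points, followed by its 1-base shifts GATTTATG (8.00 points) and TTGATTTA (5.94 points). TGATTGAT ranked 11 and TGATTAAT ranked 60.

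The strictly gained regions had a still larger share. An Exd-Hox match was in 36 of the 85 strictly gained windows (42.4%) [32.4 to 53] and in 2 of the 67 strictly lost ones (2.99%) [0.822 to 10.2], against 242 of 4525 strictly common windows (5.35%), which are the Abd-B+Hth regions at q 1e-10 that overlapped an Abd-B region at q 1e-10. Matches gathered near the centre of gained regions. In bins of 50 bp they were in 6.17% and 5.38% of gained regions on either side of the centre, and in 1.31% and 1.44% in the outermost bins at 475 bp. In lost regions the central bins held 0.651% and 0.976%, and in common regions 1.19% and 1.52%, with no such peak.

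**Figure D2:**
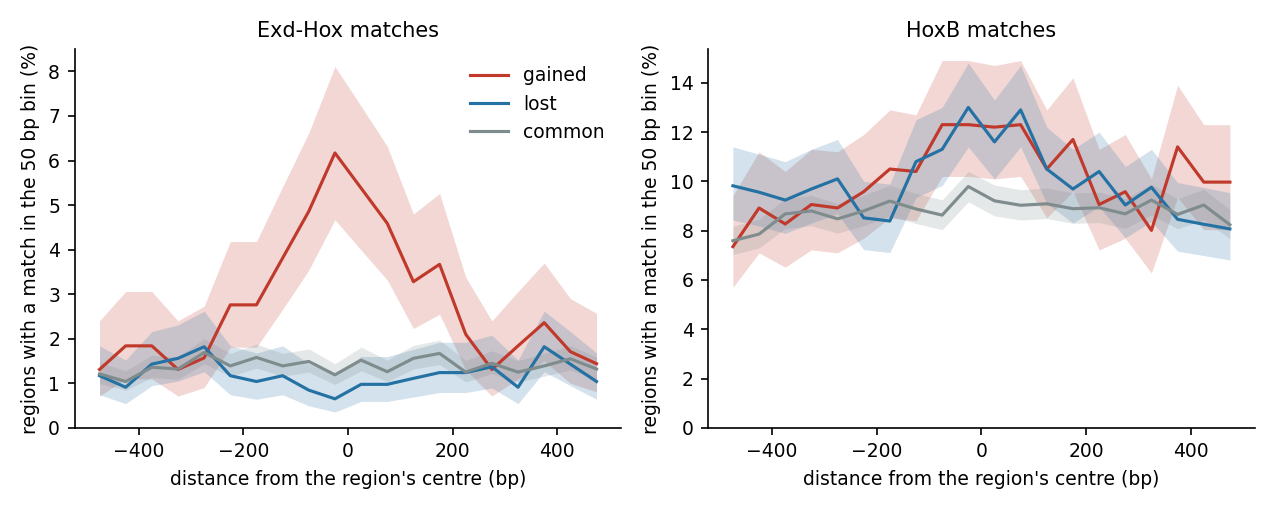
Percent of gained, lost and common regions with an Exd-Hox match (left) or HoxB match (right) in each 50 bp bin, by distance of the bin from the region's centre in bp, with shaded 95% Wilson intervals. The gained line for Exd-Hox peaks at the centre, at 6.17% and 5.38%, and the lines of the other classes stay low.

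The Abd-B-type HoxB words were more frequent in both gained and lost windows than in common ones. They were in 303 gained windows (39.8%) [36.3 to 43.3] and 568 lost windows (37.0%) [34.6 to 39.4], against 2505 common windows (30.3%) [29.3 to 31.3], and in 24.8, 22.1 and 21.4% of the flanking windows of the 3 classes. TGATTTAT runs into a HoxB word when G or T and then A or G follow, so HoxB matches that lie outside it were counted too. These were in 36.5% of gained, 36.6% of lost and 29.9% of common windows, so the excess remained in both classes. At least 2 HoxB matches were in 10.2% of gained, 11.2% of lost and 6.47% of common windows, and in 17.6% of strictly gained, 31.3% of strictly lost and 6.56% of strictly common windows. The surroundings of the strict classes differed too, with a HoxB match in 34.1, 31.0 and 21.8% of their flanking windows. Median GC content was 42.0, 39.5 and 43.0% in their centre windows, in the same order. Over whole regions the order of the main classes turned: a HoxB match was in 60.5% of gained, 55.8% of lost and 65.7% of common regions, which are wider. In words of 8 bases, lost exceeded common windows most for TTTTATTG (7.48 against 4.75%), which holds a HoxB word, and for TTTAATTG (7.03 against 4.34%). The difference in HoxB share between lost and common windows was 6.65 points for Abd-B, the highest of the 8 proteins, against -9.28 (Antp) to 1.24 points (Scr) for the other 7. This is a description, since the proteins were set beside Abd-B after its value was known.

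**Figure D3:**
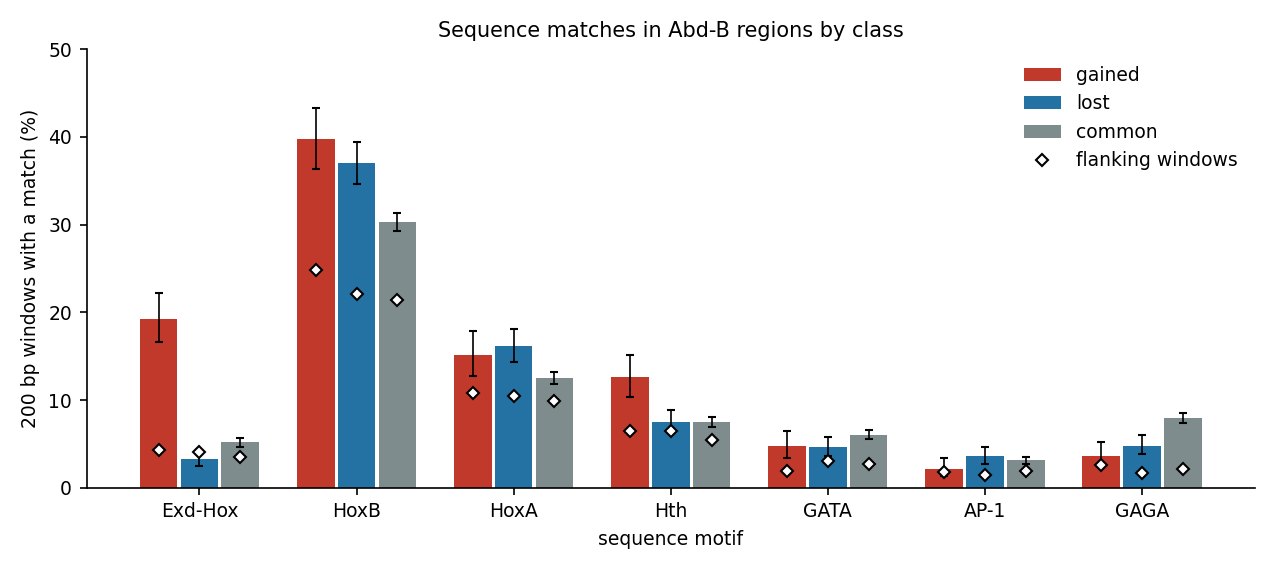
Percent of 200 bp centre windows with a match to each motif, for gained, lost and common Abd-B regions, with 95% Wilson intervals as error bars and the share in flanking windows as white diamonds. Exd-Hox stands out in gained regions (19.3%), HoxB is higher in gained (39.8%) and lost (37.0%) than in common windows (30.3%), and GAGA is highest in common ones (7.92%).

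The other motifs differed less. The Hth word TGACAG was in 12.6% of gained, 7.48% of lost and 7.47% of common windows, against 6.48, 6.45 and 5.40% in the flanks. A gained window with an Exd-Hox match held a Hth word in 16 cases (10.9%), and one without in 80 (13%), with overlapping intervals, and in those 16 windows the words lay a median of 67.5 bp apart. The anterior-type HoxA words TTAATGA and TTAATTA were in 15.2% of gained, 16.2% of lost and 12.5% of common windows. GAGAGAG, the repeat bound by GAGA factor, ran the other way, with 3.67% of gained, 4.81% of lost and 7.92% of common windows. The GATA word TGATAAG was in 4.72, 4.62 and 6.03% of gained, lost and common windows, and the AP-1 words TGACTCA and TGAGTCA, each the reverse complement of the other, in 2.1, 3.58 and 3.12%. None of the motifs was found in 35.2% of gained, 41.8% of lost and 44.8% of common windows.

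Among Exd-Hox matches at gained regions, the proteins differed in the base after TGATT. Of the 147 gained Abd-B windows with a match, 64.6% held the T form, 25.9% the G form and 16.3% the A form, some windows holding more than 1. The T share was the highest of the 8 proteins, where the others ran over 22.5% (Lab) to 58.4% (Ubx), and the A share was the lowest, where the others ran over 19.2% (Antp) to 44.6% (Dfd). The share of gained regions with any form, 19.3%, ranked 4 from the highest, within 8.99% (Ubx) to 27.2% (Antp) for the others. The Exd-Hox share over the whole Abd-B list moved by 1.72 points, close to the 1.63 points of Scr, the lowest, against 10.2 points for Antp (exact permutation p = 0.5, adjusted 0.643). The HoxB share over the whole list moved by -0.28 points, the lowest of the 8, against -0.02 (Pb) to 8.59 points (Antp) for the other proteins (exact permutation p = 0.25, adjusted 0.643).

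Gained regions lay away from gene starts. The centre was within 500 bp of the start of a protein-coding transcript in 23.1% of gained [20.2 to 26.2], 35.1% of lost [32.7 to 37.5] and 47.0% of common regions [45.9 to 48.0]. The median distance to a start was 2182 bp for gained, 1450 bp for lost and 625 bp for common regions. Introns held 54.1% of gained, 49.3% of lost and 46.8% of common centres, and 5′ UTRs held 11, 16.6 and 21.2% of gained, lost and common centres. Of the strictly gained regions 3 of 85 (3.53%) were near a start and 70.6% were intronic, and of the strictly lost regions 8 of 67 (11.9%) were near a start and 64.2% were intronic, against 41.5% near a start and 52.9% intronic in strictly common regions. The gained-minus-common difference for starts, -23.9 points, was the lowest of the 8 proteins, where the others ran over -21.5 (Scr) to -7.33 points (Lab).

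The lists of the cofactors overlapped gained and lost regions less often than common ones. The list of GFP-tagged Hth held 17.8% of gained, 13.1% of lost and 48.6% of common Abd-B regions, and the Exd+Hth list held 57.0% of gained, 46.0% of lost and 79.3% of common regions. Among regions of 300 to 800 bp the gained minus common difference was smaller, at -17.9 points for Hth and -11.6 points for Exd+Hth, against -30.8 and -22.3 points over all widths. Of the strictly gained regions 20 of 85 (23.5%) and of the strictly lost regions 0 of 67 were in the Hth list, which allows a share of up to 5.42% at the upper Wilson limit, against 65.3% of strictly common regions. Gained regions in the Hth list had an Exd-Hox match in 15 of 136 (11%) and a HoxB match in 19.9%, against 132 of 626 (21.1%) and 44.1% of those outside it. A gained region in the Hth list thus had fewer of both words. Lost regions in the Hth list likewise had HoxB matches less often, in 14.9%, against 40.3% of those outside it.

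Other Hox proteins with Hth were often found where Abd-B was gained. Dfd+Hth overlapped 57.3% of gained, 59.9% of lost and 88.5% of common regions, and the list is the longest of the series. Scr+Hth overlapped 32.0, 20.8 and 70.1% of gained, lost and common regions, and Abd-A+Hth 29.1, 10.1 and 64.3%. Antp+Hth overlapped 21.5% of gained, 2.34% of lost and 29.5% of common regions, while Antp alone overlapped 1.84, 1.89 and 36.9%. Ubx+Hth overlapped 19.7, 6.12 and 54.4%, while Ubx alone overlapped 3.02, 2.21 and 38.1%. For Antp+Hth the order of gained and common regions turned under other settings, with 72.9% (62 of 85) of strictly gained against 48.9% of strictly common regions, 24.5 against 16.5% for regions of 300 to 800 bp, and 21.3 against 18.8% in the q 1e-10 lists. For Lab+Hth it turned for regions of 300 to 800 bp, with 24.7% of gained and 23.6% of common ones. Antp alone overlapped 1 strictly gained region (1.18%), against 60.1% of strictly common ones. Ubx+Hth overlapped 35 strictly gained regions (41.2%), against 77.6% of strictly common ones, and Ubx alone overlapped 0, which allows up to 4.32%, against 58.6%. A strictly lost region was in the Antp+Hth, Ubx+Hth and Abd-A+Hth lists in 1 of 67 cases each (1.49%). The lists differ in length, so the shares compare classes within a list and not lists with each other.

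**Figure D4:**
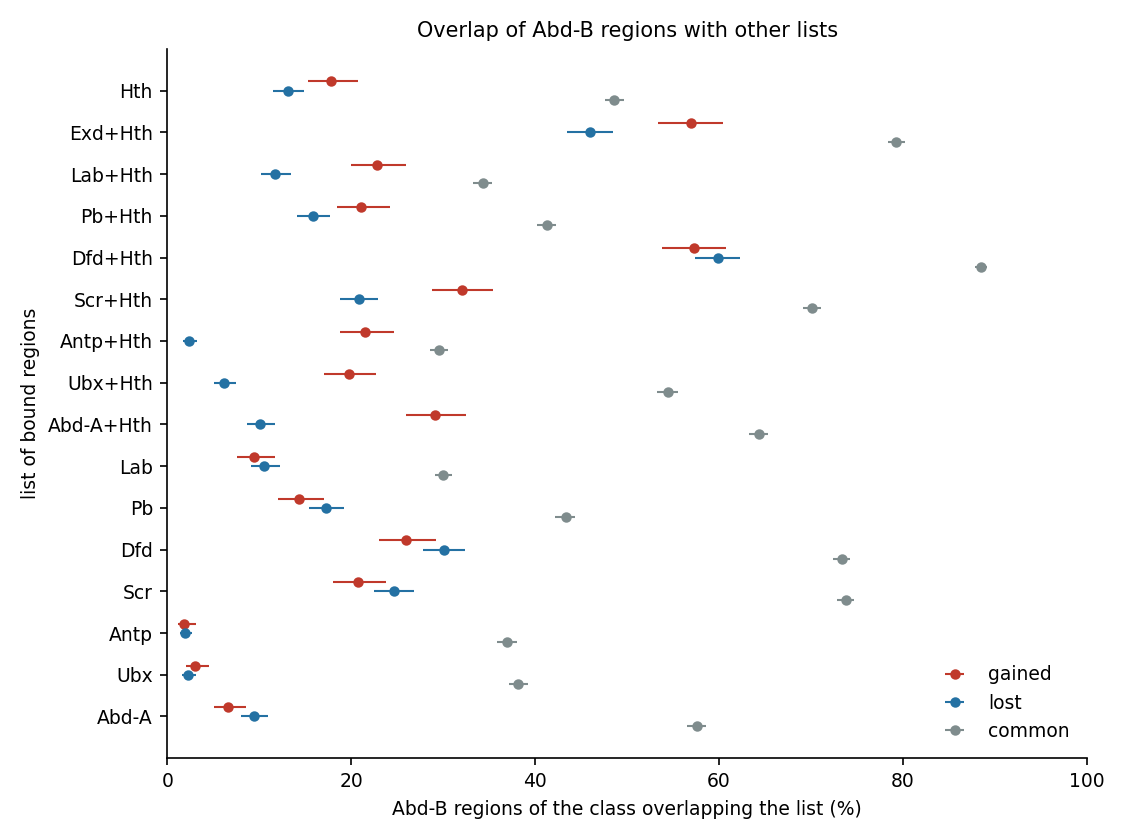
Percent of gained, lost and common Abd-B regions that overlap each of 16 other lists by at least 1 bp, with 95% Wilson intervals as horizontal bars. Common regions lie farthest right in every list at q 0.01, an order that turns for Antp+Hth and Lab+Hth among regions of 300 to 800 bp, and gained regions lie right of lost ones for Antp+Hth (21.5 against 2.34%) and Abd-A+Hth (29.1 against 10.1%).

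Sharing with the other Hox proteins was counted by condition. Of the 762 gained regions, 306 (40.2%) overlapped lists of both kinds, 275 (36.1%) overlapped another Hox+Hth list and no list of another Hox protein alone, and 3 did the reverse. Of the 1537 lost regions, 678 (44.1%) overlapped both kinds, 338 (22.0%) another Hox+Hth list and no Hox list alone, and 42 did the reverse. Of the 8265 common regions, 6998 (84.7%) overlapped both kinds, 729 (8.82%) another Hox+Hth list and no Hox list alone, and 62 did the reverse. A region shared in the presence of Hth only was thus a larger part of the gained and lost classes than of the common one, and the proteins differed in this. For Antp, 161 gained Abd-B regions were bound with Hth only, 3 in both conditions and 11 without Hth only. For Abd-A these numbers were 177, 45 and 5, and for Ubx 127, 23 and 0. The anterior proteins were mixed: the numbers were 110, 64 and 8 for Lab, 64, 97 and 12 for Pb, 245, 192 and 6 for Dfd, and 122, 122 and 36 for Scr. The proteins also differed in the share gained over their whole Hox+Hth lists. It was 36.5% for Antp, 22.9% for Abd-A, 39.7% for Ubx, 37.9% for Lab, 16.8% for Pb, 40.6% for Dfd and 14.0% for Scr. This split was not made for common regions, and the part of these list-wide shares in the counts was not tested. At lost Abd-B regions they were 31, 5 and 24 for Antp, 69, 86 and 58 for Abd-A, and 71, 23 and 11 for Ubx. Dfd, whose list with Hth is the longest, had the most lost Abd-B sites bound with Hth only, with 471, 449 and 13. For Lab they were 48, 132 and 30, and for Pb 32, 211 and 54. Scr, an anterior protein, was the one with most lost Abd-B sites bound without Hth only, 154, beside 95 with Hth only. No region of any other list was found at 125 gained (16.4%), 349 lost (22.7%) and 324 common regions (3.92%), and these held HoxB matches in 50.4% of gained, 54.7% of lost and 59.6% of common windows.

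Genes were linked to regions within 1 kb of the gene. Of 13945 protein-coding genes, 753 (5.40%) had a gained region, 1659 (11.9%) a lost region and 6443 (46.2%) a common region. Both a gained and a lost region were at 211 genes, which is 28.0% of those with a gained and 12.7% of those with a lost region. Of the genes with a gained region 217 (28.8%) had no common region, and of those with a lost region 709 (42.7%) had none. Genes with a gained region were long, with a median of 9.02 kb, and genes with a lost region had 4.66 kb, against 3.35 kb for those with a common region and 2.17 kb for all protein-coding genes, so lists of long genes cannot be read against the share over all genes.

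The genes with most gained regions were Tet, for a TET-family dioxygenase, with 6, mtd and Svil with 5 each, and bbg and tkv with 4 each. Tet had 2 lost and 7 common regions, mtd 0 and 16, Svil 5 and 19, bbg 2 and 3, and tkv, which encodes a type I receptor for Dpp, 5 and 10. The genes with most lost regions were bun with 6, and tkv, Lmpt, mam and Svil with 5 each. Among these bun had 3 gained and 35 common regions, Lmpt 0 and 8, and mam, the gene of the Notch co-activator Mastermind, 1 and 20. Svil and tkv were thus in both groups.

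The longest strictly gained region, 1245 bp, lay 3.28 kb from the start of ppk, a sodium channel subunit of sensory neurons, and held 2 HoxB matches, no Exd-Hox match and overlap with Dfd+Hth and Antp+Hth. The next, of 1016 bp, was in an intron of CG5151, with 1 Exd-Hox match and 5 other Hox+Hth lists. The others among the 10 longest were near Syx7 (826 bp), noc (751 bp) and CG33648 (662 bp), in introns of mtd (743 bp), Sesn (652 bp), fra (634 bp) and pico (609 bp), and in a non-coding exon of Arms (671 bp). Syx7 and CG33648 differed from the rest in that all 7 other Hox+Hth lists and the Hth list overlapped them. The longest strictly lost region, 824 bp, was in an intron of sano and was shared with Dfd in both conditions. It was followed by regions near CG15283 (602 bp), in introns of Prip (591 bp) and Ncc69 (565 bp), near CG15093 (547 bp), in the exon of a non-coding RNA next to CG7573 (523 bp), in an intron of Ten-m (520 bp), and near wor (493 bp), CG46270 (489 bp) and Cipc (470 bp). None of these 10 overlapped the Hth list, and those at Ncc69 and CG46270 were found in no other list. The gene Ncc69 had 4 lost and 3 common regions in all.

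Abd-B regions were examined at lists of genes that fit its known roles, chosen with results of these data known. Across 80 genes, 14 had a gained, 19 a lost and 56 a common region, and their median length was 12.1 kb. Over all protein-coding genes the shares were 5.40, 11.9 and 46.2%, at a median length of 2.17 kb. Median lengths of the lists ran from 2.23 kb (cell death) to 30.6 kb (Hox genes), with 17 kb for posterior spiracle and 15.5 kb for haemocyte genes. Because of these lengths, the counts below only describe the lists and are not read against the share over all genes. Of the 8 Hox genes, 1 had a gained, 1 a lost and 6 a common region. The gene abd-A had 2 gained regions, 1 in an intron and 1 just before the gene, and no common one, Antp had a lost intronic region with 3 HoxB matches, and Abd-B itself had 2 common regions. A further list of 4 genes held hth and exd, for the cofactors named in the study, with achi and vis, which the study does not name. In it hth had 2 lost and 7 common regions, achi and vis shared 1 lost region, and none had a gained one. The exons carried by the plasmids were removed from the lists by the authors, so regions within hth and Abd-B are incomplete.

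Of the 19 genes of the posterior spiracle, an organ that Abd-B specifies, 4 had a gained, 4 a lost and 17 a common region. The RhoGAP gene cv-c, a target in the invaginating spiracle, had 3 gained, 3 lost and 17 common regions. The homeobox gene ct had 1 gained and 1 lost region beside 8 common ones, crb had 2 lost and ems 1 lost region, and RhoGEF64C and Cad87A had 1 gained region each. Of the 10 pigmentation genes, 1 had a gained, 2 a lost and 4 a common region. In dsx, the gene of the sex-determination factor, there were 3 gained, 1 lost and 6 common regions, all 3 gained ones intronic and overlapped by Dfd+Hth, and in bab2 there were 2 lost and 8 common regions, with 1 of the lost regions strict and printed above. The genital disc and hindgut list of 16 genes had 2 with a gained (inv and bnl), 4 with a lost (hh, cad, bnl and drm) and 9 with a common region. The lost region linked to hh lay in the 5′ UTR of CG31457, 0.001 kb from the start of that gene. Of 8 cell death genes, hid and Dark had a gained region, Dronc a lost one and 5 a common one. The gained region linked to Dark lay in the 5′ UTR of Paip1, 0.079 kb from the start of that gene. Among 15 haemocyte genes, the group closest to the cell line, 4 had a gained (ush, vkg, Pxn and lz), 4 a lost (Pvr, ush, Hml and Pxn) and 11 a common region. The gene ush, a cofactor of GATA factors in blood cells, had 3 gained, 1 lost and 19 common regions, and 1 of the gained regions was strict, held an Exd-Hox match and overlapped 6 other Hox+Hth lists.

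**Figure D5:**
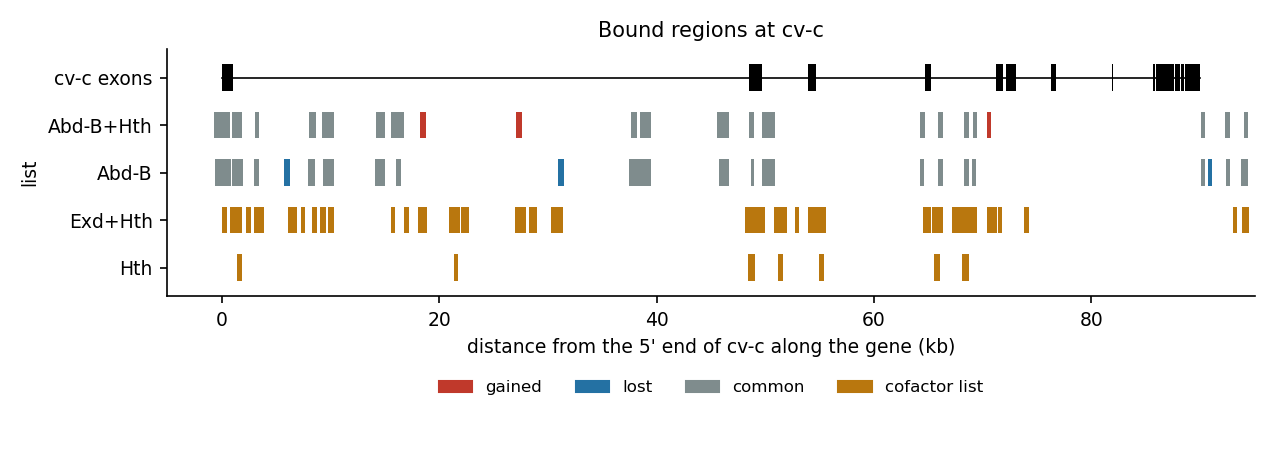
Map of bound regions along cv-c, with distance from the gene's 5′ end in kb on the x axis, exons on the top row and the Abd-B+Hth, Abd-B, Exd+Hth and Hth lists below. Gained and lost regions, 3 each, lie among the common ones along the gene, and each is listed in Abd-B+Hth or in Abd-B and not in the other.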

How the data were processed

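ChIP-seq was done in transiently transfected Kc167 cells, 2 libraries and 1 input per group. For the deposited lists, the authors mapped reads with Bowtie 1.2.2 (genome build dm6), called regions for each replicate against input with MACS2 2.1.1.20160309 at q values of 0.01 and 1e-10, removed regions over exons carried by the plasmid and deposited, for each group, the union of regions that overlapped in both replicates. The deposited score column is 0 throughout and was not used, so a region had to pass in both libraries and the weaker library limits each list. Read counts and signal were not analysed here, and depth is unknown from the lists.

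Regions were classed by overlap of at least 1 bp with Python 3.11.15 and numpy 2.4.6. Motifs were searched on both strands in 200 bp centre windows of the Release 6 genome, and genes came from Ensembl release 115. Class counts and motif shares were tested on simulated lists. Genes and regions were named by rule: members of the gene lists with a gained or lost region, the 5 genes with most gained and most lost regions, and the 10 longest strictly gained and strictly lost regions. Printed windows left out chromosome arm 2R and centres in UTRs. The members, gene lists and motifs were chosen with earlier results of these data known. Alternatives were the q 1e-10 lists, the strict definition, a 50% overlap, centre windows, widths of 300 to 800 bp, other windows and distances, and leaving out each other protein or regions near plasmid genes.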

Additional observations from a re-analysis of the deposited data

How the results depend on the processing

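No paired analysis was possible because each list combines both replicates. The lists hold no scores, so a region just under the threshold in 1 library counts as absent, and depth limits both classes by an amount that was not tested. The numbers gained and lost moved with the threshold and the definition: 493 (9.82%) gained and 20.2% lost in the q 1e-10 lists, 1616 (17.9%) and 2367 (24.2%) with 200 bp centre windows, 10.1% and 19% for regions of 300 to 800 bp, and 85 (1.69%) and 67 (1.18%) by the strict definition. A 50% overlap gave 766 and 1548, and leaving out regions near plasmid genes gave 762 and 1535. The share lost of Abd-B minus the mean of the other proteins, -0.20 points, was 4.59 points in the q 1e-10 lists, ran over -2.67 to 4.51 points when 1 other protein was left out, and was positive without Lab (0.288) or Antp (4.51). The other 78 alternatives against the other proteins kept their direction, and none can reach 0.05 with 1 protein against 7.

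The Exd-Hox excess of gained over common windows (14.1 points) was 18.8 points in 400 bp windows, 10.8 in whole regions and 37 by the strict definition. The HoxB difference of lost minus common (6.65) was -9.89 points in whole regions and 31.2 by the strict definition. In whole regions the gained minus common difference was -5.21 points for HoxB, against 9.46 in centre windows, and -1.19 points for Hth, against 5.13. These turns go with the greater width of common regions. For overlap with the Hth list, gained minus common (-30.8 points) was -26.7 with centre windows, -21.9 in the q 1e-10 lists, -41.7 by the strict definition and -17.9 for 300 to 800 bp. For Exd+Hth (-22.3 points) it was -26.9 by the strict definition and -11.6 for 300 to 800 bp. The order of gained and common regions in the Antp+Hth list (21.5 and 29.5%) turned for 300 to 800 bp, in the q 1e-10 lists and by the strict definition, and in the Lab+Hth list for 300 to 800 bp. Genes with a gained and a lost region numbered 1380 and 3106 within 5 kb, and 74 and 61 by the strict definition. Near a start, in alternatives chosen after seeing the data, the shares of gained, lost and common regions were 18.8, 32.7 and 49.7% for 300 to 800 bp, and 33.2, 43.7 and 56.9% within 1 kb.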

Other observations

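Among words of 8 bases, CACACACA was the one most in deficit in both gained (6.43%) and lost windows (5.53%), against 9.40% of common windows, and AGAGAGCG was in 1.18% of gained and 1.76% of lost windows, against 3.86% of common ones. Words in deficit in lost windows were mostly CA repeats, among them CGCACACA with 2.54% of lost and 5.78% of common windows. Between gained and lost windows, TTTTATTG was the word most in deficit in gained ones, at 4.33% of gained and 7.48% of lost windows.

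Gained regions lay a median of 39.2 kb from the next gained region and 19.3 kb from the nearest lost one, and lost regions lay 17.9 kb from the next lost one. These distances also depend on how many regions each class holds, 762 gained and 1537 lost. A strictly gained region of 260 bp at Antp, in a 3′ UTR, was in the Abd-B+Hth list at q 1e-10 but overlapped no region of that group's list at q 0.01, so 84 of the 85 strictly gained regions were in both. All 67 strictly lost regions were in both lists of Abd-B.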
